A study of Homo sapiens with 6 samples.

Results

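This is an account of 10 genes of the actin cytoskeleton in MM1.S cells, a human multiple myeloma line, after depletion of beta-catenin. The array reads 19775 genes with a probe set of a single symbol, and 9 of the 10 genes are among them. The 10 are the cytoplasmic actins ACTB and ACTG1, the monomer-binding proteins PFN1, TMSB4X and TMSB10, the severing protein CFL1, the Arp2/3 subunits ARPC2 and ARPC5, the capping protein subunit CAPZA1 and the myosin light chain MYL6. The cells had been infected with a lentiviral vector, which the titles call pKLO, that carried either an shRNA against beta-catenin or a control insert. The titles name the controls "pKLO GFP control" and do not say what GFP stands for there. GFP-positive cells were sorted, and 3 cultures were grown of each sorted population. There were 3 arrays of beta-catenin shRNA cultures, called the knockdown here, and 3 arrays of control cultures. Both groups thus share the line, the vector and the sort, and differ in the insert; the sequence of the hairpin and the number of hairpins or infections are not given in the sources used here. Every probe set that the array annotation pairs with one of the 10 symbols was taken, 32 in all. Of these, 20 carry 1 symbol, 9 carry both ACTG1 and ACTB, and 3 are Affymetrix control probe sets of ACTB.

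The genes were selected on results of this same comparison, since the lower signal of ACTB and related genes was known when the set was drawn up. The changes below are therefore a description of these arrays, and no p-value is given for any of the 10 genes; where calls of the fit over all genes are counted for them, the counts describe these arrays and support nothing. Values are log2 expression as deposited, with a floor at 4, and a change is knockdown minus control on that scale. The values come close to 4 without reaching it, as an offset of 16 added to the signal before the log would give, but the formula is not stated. With such an offset the change of a dim probe set is understated. A gene's main value is its brightest probe set of a single symbol.

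Actin is a globular protein that binds ATP and polymerises into filaments, and in most cells it is among the most abundant proteins. A large store of monomer is held by beta-thymosins, which block polymerisation, and is handed by profilin to growing filament ends. The Arp2/3 complex starts new branches on existing filaments, capping protein closes the fast-growing end, cofilin severs old filaments and returns monomer, and myosin II pulls on the network. In plasma cells and their tumours this machinery serves adhesion to stroma, migration and the contractile ring of dividing cells. Actin also feeds back on its own genes: free monomer holds the coactivator MRTF in the cytoplasm, and MRTF released from it acts with the transcription factor SRF at a sequence called the CArG box, found at several actin genes.

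Promoter sequences of the genes with the largest differences (PFN1, TMSB10 and CFL1), of the gene that was higher (ARPC5), and of the genes with a CArG box (ACTG1 and SRF, which is not one of the 10) are shown to set these genes beside the motifs named above. Each is the 150 bases before the start, RefSeq, GRCh38.p14, 5′ to 3′ on the gene's strand: PFN1 at chr17:4948531-4948680 (minus), TMSB10 at chr2:84905506-84905655 (plus), CFL1 at chr11:65858181-65858330 (minus), ARPC5 at chr1:183635784-183635933 (minus), ACTG1 at chr17:81512800-81512949 (minus) and SRF at chr6:43171119-43171268 (plus). Capitals mark matches on either strand to the CArG box, to GGGCGG, known as a GC box, or to the motif CCAAT; the ARPC5 stretch holds none of these.
PFN1: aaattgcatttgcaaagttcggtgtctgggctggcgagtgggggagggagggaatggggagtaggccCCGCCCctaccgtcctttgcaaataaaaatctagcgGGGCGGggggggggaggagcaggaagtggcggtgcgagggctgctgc
TMSB10: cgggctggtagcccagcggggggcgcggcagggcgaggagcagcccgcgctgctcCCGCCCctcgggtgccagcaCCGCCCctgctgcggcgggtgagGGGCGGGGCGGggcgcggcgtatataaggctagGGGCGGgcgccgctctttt
CFL1: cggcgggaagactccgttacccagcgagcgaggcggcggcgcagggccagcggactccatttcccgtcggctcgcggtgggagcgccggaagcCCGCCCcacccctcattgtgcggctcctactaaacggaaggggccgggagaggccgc
ARPC5: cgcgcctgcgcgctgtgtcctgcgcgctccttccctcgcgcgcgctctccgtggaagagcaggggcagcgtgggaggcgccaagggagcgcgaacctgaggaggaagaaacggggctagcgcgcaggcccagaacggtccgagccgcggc
ACTG1: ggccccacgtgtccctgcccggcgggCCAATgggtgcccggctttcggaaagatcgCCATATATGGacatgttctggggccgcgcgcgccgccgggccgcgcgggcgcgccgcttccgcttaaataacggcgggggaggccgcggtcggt
SRF: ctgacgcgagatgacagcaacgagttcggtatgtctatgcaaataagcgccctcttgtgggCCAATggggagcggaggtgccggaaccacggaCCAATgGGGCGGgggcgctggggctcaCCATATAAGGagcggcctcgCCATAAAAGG
The RefSeq table holds promoters of 9 of the 10 genes, and ACTB is named only. Over the window of 250 bases before and 50 after the start, both strands, the CArG box was found in 1 of these 9 genes, ACTG1, at 94 to 85 bases before the start, and in 1.29% of all 35116 promoters of the table. SRF itself had a pair of CArG boxes in the promoter shown, beginning 30 and 10 bases before that start. RefSeq also holds another SRF promoter, which had no CArG box in this window. GGGCGG was found in 9 of 9 genes and in 45% of all promoters. CCAAT was found in 5 of 9 genes and in 34.6% of all promoters. TGACGTCA, the site of CREB proteins, was found in 1 of 9, MYL6, and in 1.85% of all promoters, and TATAAA in 0 of 9 and in 11.5%. A match is a description of the letters in this window and not evidence of binding.

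Array medians were 5.50 to 5.54 in the knockdown and 5.44 to 5.50 in the controls. The targeted transcript was checked first: on the brightest CTNNB1 probe set the knockdown arrays read 6.39, 6.53 and 6.34 and the control arrays 7.82, 7.67 and 7.75. The other CTNNB1 probe sets changed by 0.33 and −0.07. All 8 plasma cell markers listed were at or above the filter of 5.49 that a gene had to reach to be tested, which is the median of all probe set means. Their summed linear signal was 7162 to 7592 in the knockdown and 6227 to 6554 in the controls. MAF changed most among the 8, at 10.95 in the knockdown and 9.77 in the controls. SLAMF7, PRDM1 and CD38 changed by 0.80, 0.51 and 0.39, and TNFRSF17, IRF4, SDC1 and XBP1 by −0.32, −0.23, −0.20 and −0.11. The higher sum is thus not shared by every marker. Smooth muscle and fibroblast cells would bring actin genes of their own. Of the 7 markers listed for them, 6 were at or above the filter, and COL3A1 was below it. Of all 19775 genes 12939 reached the filter, which is not a limit of detection. The summed signal of that list was 1171 to 1280 in the knockdown and 1295 to 1323 in the controls, most of it from MYH11; its part in the results was not tested. The control probe sets of 18S ribosomal RNA averaged 10.62 ± 0.35 in the knockdown and 9.27 ± 0.80 in the controls (SD, n = 3 each; exact permutation p = 0.1, the smallest that 3 against 3 arrays allow). That difference moves with the groups, and its part in the results was not tested. The RNA came from whole cultures, in which fewer cells expressing a gene and less RNA per cell cannot be told apart.

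Seen over the set, 8 of the 9 genes with a probe set of their own were lower in the knockdown on their brightest probe set and 1, ARPC5, was higher. The median change was −0.33, with a range of −0.93 to 0.29, beside a median of 0.05 over all 12939 genes tested. The fit over all genes (limma, adjusted p under 0.05) called 7 of the 9 lower and 1 higher, or 5 lower and 2 higher when a gene's probe sets were averaged. It called 47.3% of all genes, 22% lower and 25.3% higher. The groups did not overlap for 8 of the 9 genes, and for 54.4% of all genes tested. Since the set was selected on this contrast, nothing is read from these counts. The median was −0.22 when a gene's probe sets were averaged.

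**Figure D1:**
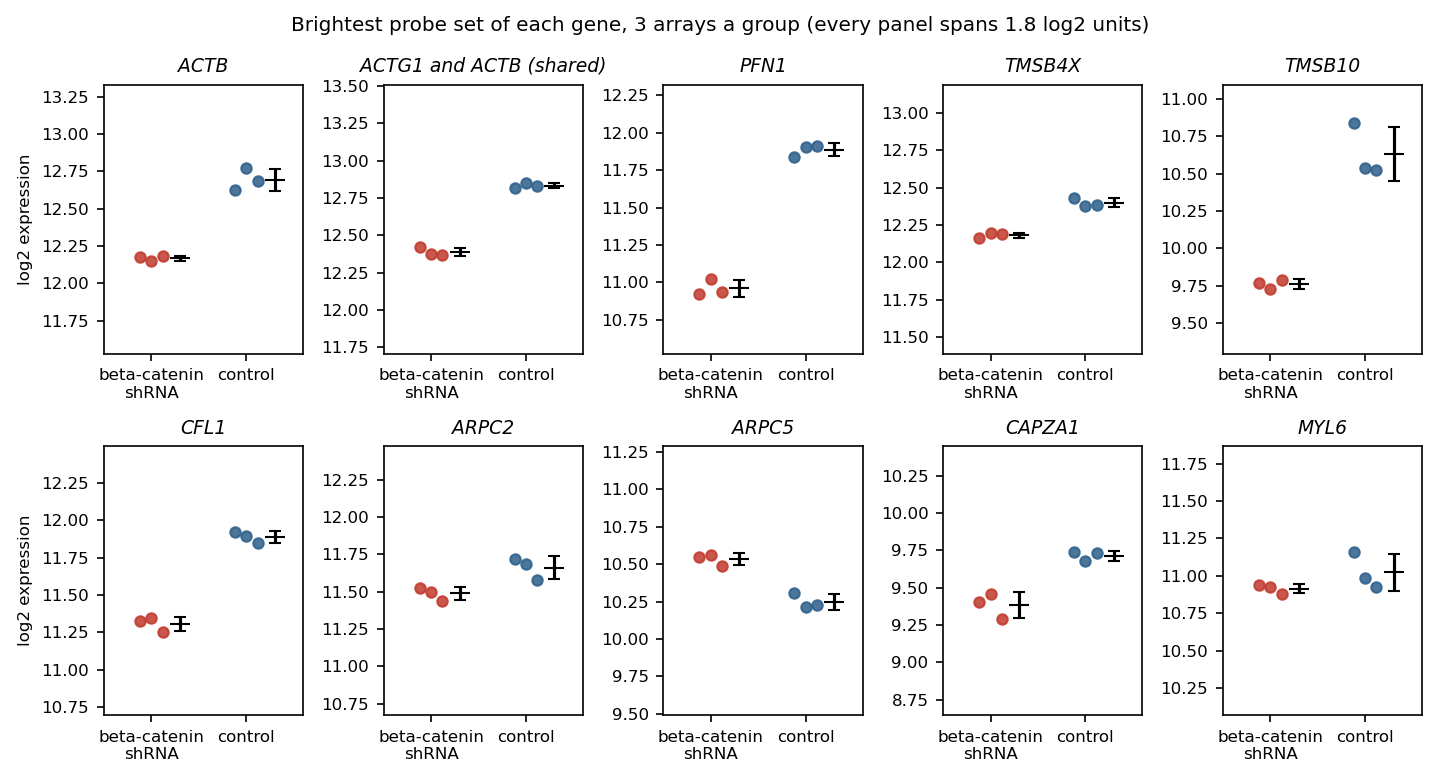
Log2 expression of the brightest probe set of each gene (y axis, every panel 1.8 log2 units high) in the 3 beta-catenin shRNA arrays (red, left) and the 3 control arrays (blue, right), with the mean and SD as bars beside the points. The groups do not overlap except for MYL6, and ARPC5 is the gene with the knockdown arrays above the controls; ACTG1 is shown by its brightest probe set shared with ACTB.

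The actins come first. ACTB encodes beta-actin, the main actin of non-muscle cells. Its brightest probe set read 12.17, 12.15 and 12.18 in the knockdown arrays, against 12.62, 12.77 and 12.69 in the control arrays. All 3 knockdown arrays lay below all 3 controls, and they lay closer together than the controls did. The means were 12.17 ± 0.02 in the knockdown and 12.69 ± 0.07 in the controls (SD, n = 3 each), a change of −0.52 (SE 0.04) or 1.44-fold lower. The other ACTB probe sets changed by −0.52 and −0.55. All 3 carry the _x_ mark, which Affymetrix gives to probe sets that may also read other transcripts, and actin genes have many processed pseudogenes. Of the genes tested, 1429 were lower by more than ACTB was.

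ACTG1 encodes gamma-actin, the second cytoplasmic actin, which is nearly identical to beta-actin. It had no probe set of its own, because each of its 9 probe sets is also assigned to ACTB, so its level apart from ACTB was not measured here. On the brightest shared probe set the knockdown arrays read 12.42, 12.38 and 12.37, against 12.82, 12.85 and 12.83 in the controls. Over the 9 shared probe sets the change ran from −0.53 to −0.39 with a median of −0.43. The groups did not overlap on any of the 9, as on 37.2% of all probe sets. All 9 carry the _x_ mark and may read the same transcripts, so they are not 9 separate results. The single array values ran from 12.09 to 12.42 in the knockdown and from 12.55 to 12.85 in the controls. The highest value of any probe set on an array was 13.32 to 13.38, so these actin readings lie near the top of the scale, where an array may respond less than in proportion; this was not tested.

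The control probe sets of ACTB, read apart from the others, gave the same sign along the transcript. The 3′ probe set read 11.79, 11.81 and 11.77 in the knockdown arrays and 12.35, 12.47 and 12.43 in the controls, a change of −0.63. The middle probe set changed by −0.58 and the 5′ probe set by −0.54. The groups did not overlap on any of the 3, as on 37.2% of all non-control probe sets. On the 5′ probe set, control replicate 1 read 11.45, below the other controls at 11.94 and 11.84. The difference of the 3′ from the 5′ probe set, a measure of how complete the labelled RNA was and one that did not choose the genes, was 0.64, 0.56 and 0.54 in the knockdown arrays. In the control arrays it was 0.89, 0.53 and 0.59, so that control replicate 1 stood above the 5 other arrays. The means were 0.58 ± 0.05 in the knockdown and 0.67 ± 0.19 in the controls (SD, n = 3 each), which differed by less than the spread of the controls (exact two-sided permutation p = 0.7, where 0.1 is the smallest possible). Without control replicate 1 the groups differed in this measure by 0.019 in place of −0.09.

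**Figure D2:**
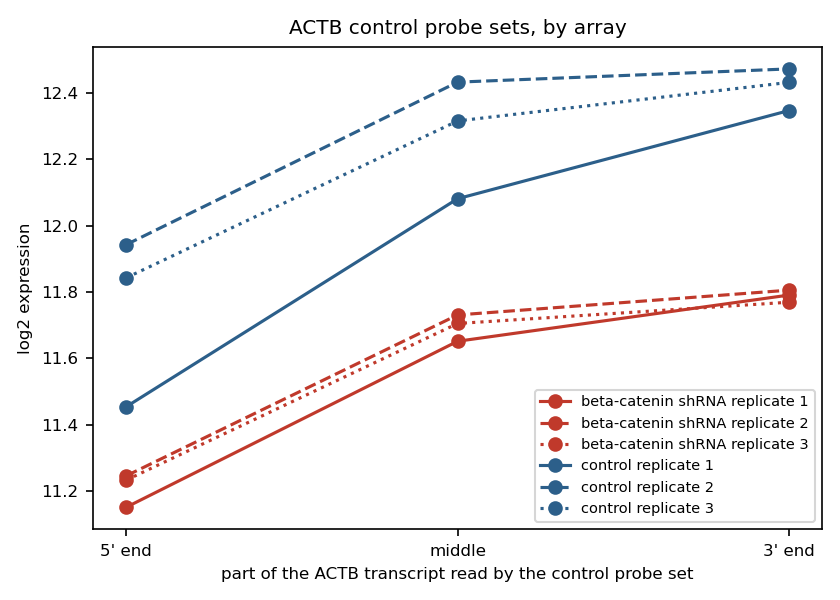
Log2 expression (y axis) of the 5′, middle and 3′ control probe sets of ACTB (x axis) in each beta-catenin shRNA array (red) and each control array (blue). Every knockdown line lies below every control line at each position, and control replicate 1 drops furthest toward the 5′ end, to 11.45.

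Among the monomer-binding proteins, profilin 1 and thymosin beta-10 showed the largest changes of the 9 genes with a probe set of their own. With all arrays PFN1 changed by more than TMSB10, but TMSB10 changed by slightly more without control replicate 2 and without control replicate 3. PFN1 encodes profilin 1, which exchanges the nucleotide on actin and delivers monomers to formins and other nucleators. Its only probe set read 10.92, 11.03 and 10.93 in the knockdown arrays, against 11.84, 11.91 and 11.91 in the controls. The groups were far apart relative to their spread, with means of 10.96 ± 0.06 in the knockdown and 11.89 ± 0.04 in the controls (SD, n = 3 each). The change was −0.93 (SE 0.05), or 1.90-fold lower, and 526 of the genes tested were lower by more. Its promoter, shown above, held a pair of GGGCGG matches and no CArG box.

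The thymosins, small peptides that sequester actin monomers, were both lower, TMSB10 by more. TMSB10 encodes thymosin beta-10 and was read at 9.77, 9.73 and 9.79 in the knockdown arrays, against 10.84, 10.54 and 10.52 in the controls. Control replicate 1 was the highest of the controls, and all 3 knockdown arrays lay below all controls. The change was −0.87 (SE 0.08), or 1.83-fold lower, and −0.77 without control replicate 1. TMSB4X encodes thymosin beta-4, the most abundant monomer store of many blood cells, and was read at 12.16, 12.19 and 12.19 in the knockdown arrays, against 12.43, 12.38 and 12.38 in the controls. The groups did not overlap but lay close, with a change of −0.22 (SE 0.04), or 1.16-fold lower. Both are read by 1 probe set each, with the _s_ mark of probe sets that match several transcripts, and the TMSB4X readings lie in the same top range as those of ACTB.

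CFL1 encodes cofilin 1, which binds ADP-actin in older filaments and severs them. Its brightest probe set read 11.32, 11.34 and 11.25 in the knockdown arrays, against 11.92, 11.89 and 11.85 in the controls, a change of −0.58 (SE 0.05). A further bright probe set read 10.17, 10.23 and 10.18 in the knockdown arrays, against 11.05, 11.03 and 11.03 in the controls, a change of −0.84. Both probe sets separate the groups without overlap, as do 37.2% of all probe sets. Of these bright probe sets the dimmer shows the larger change. The other 2 CFL1 probe sets stayed between 4.40 and 5.03 on all arrays, near the floor and below the filter, with changes of −0.06 and −0.01. At that level they can show little, and the mean over all 4 probe sets changed by −0.37.

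The Arp2/3 subunits showed small changes of opposite sign. ARPC2, a subunit of the core that holds the complex to the mother filament, was read at 11.53, 11.50 and 11.44 in the knockdown arrays by its brightest probe set, against 11.72, 11.68 and 11.58 in the controls. The groups did not overlap but lay close, and the change was −0.17 (SE 0.05). The other ARPC2 probe sets changed by 0.05 and 0.015 with overlapping groups, and each of these turned slightly negative, to −0.0091 and −0.04 at the lowest, under another scaling of the arrays. Under quantile normalization the brightest one changed by −0.0034, so the lower ARPC2 reading rests on the scaling and on 1 of 3 probe sets.

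ARPC5, the subunit that tethers the ARP2 arm of the complex, was higher in the knockdown. Its brightest probe set read 10.55, 10.56 and 10.49 in the knockdown arrays, against 10.31, 10.21 and 10.23 in the controls, a change of 0.29 (SE 0.06) or 1.22-fold higher. The second read 9.68, 9.86 and 9.70 in the knockdown arrays and 9.52, 9.64 and 9.66 in the controls, a change of 0.14, and the third, dim one changed by 0.32. The groups did not overlap on any of the 3 probe sets, as on 37.2% of all probe sets. Only the brightest was called by the fit over all probe sets, which calls 23.2% of them, 9.95% lower and 13.3% higher.

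CAPZA1 encodes the alpha-1 subunit of capping protein, which closes barbed ends. Its bright probe set read 9.40, 9.46 and 9.29 in the knockdown arrays, against 9.74, 9.68 and 9.73 in the controls, a change of −0.33 (SE 0.07) or 1.26-fold lower. Its dim one lay below the filter at 5.61, 5.34 and 5.37 in the knockdown arrays, against 5.27, 5.02 and 5.07 in the controls, a change of 0.32. The probe sets thus separate the groups in opposite directions, but the dim one was not called by the fit over all probe sets. The mean over both CAPZA1 probe sets changed by −0.0037.

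MYL6 encodes the essential light chain of non-muscle and smooth muscle myosin II. Its brightest probe set read 10.94, 10.93 and 10.88 in the knockdown arrays, against 11.16, 10.98 and 10.92 in the controls, and the groups overlapped with a change of −0.11 (SE 0.06). Its other probe set read 8.47, 8.30 and 8.59 in the knockdown arrays, against 7.69, 8.08 and 8.05 in the controls, a change of 0.51 without overlap. The direction for MYL6 therefore differs by probe set, and which part of the transcript each one reads was not analysed here. The mean over both changed by 0.20.

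Over the 20 probe sets of a single gene, 10 were called lower, 2 higher and 8 were not called. Of all 54613 probe sets 23.2% were called, 9.95% lower and 13.3% higher. The groups did not overlap on 15 of the 20, 10 of them lower and 5 higher, and on 37.2% of all probe sets. Of the 20, 17 were at or above the filter. Control replicate 1 was the highest control array for 7 of the 9 genes on their brightest probe set, and knockdown replicate 3 the lowest knockdown array for 5 of 9. With any 1 array left out, the median change of the 9 genes stayed between −0.37 and −0.28, and 8 or 9 of them were called.

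**Figure D3:**
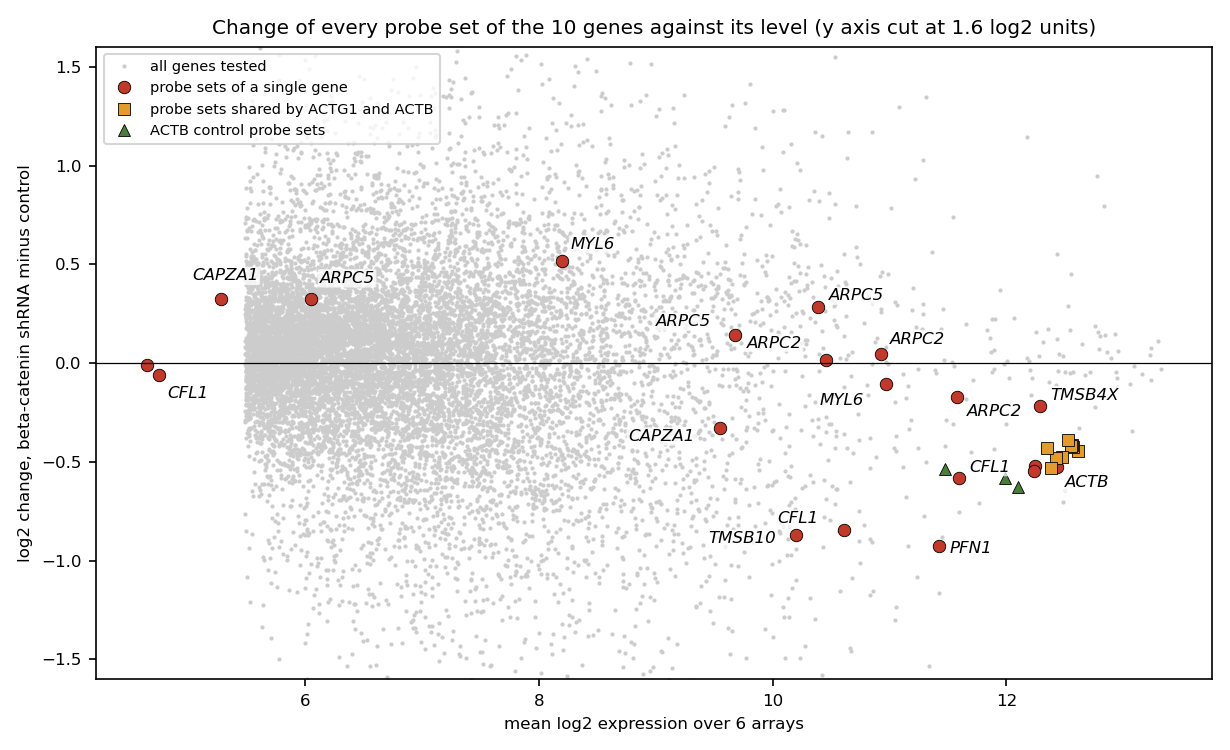
Log2 change, beta-catenin shRNA minus control (y axis, cut at 1.6), against mean log2 expression over the 6 arrays (x axis) for every probe set of the 10 genes, with all genes tested in grey. The ACTB probe sets, the shared ones and the ACTB controls, all bright, lie between −0.63 and −0.39, PFN1, TMSB10 and 1 CFL1 probe set lie lowest, and ARPC5 and the dimmer MYL6 and CAPZA1 probe sets lie above 0.

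The changes were set beside those of all tested genes of similar level, with the genes reported here among them. Selection on this contrast bears on where the reported genes fall, so nothing is read from these positions. Of the 75 genes tested with a mean level between 11 and 12, 36 were called lower and 24 higher; their changes had a median of −0.08 and quartiles of −0.48 and 0.19. The ARPC2 change of −0.17 lies within those quartiles, and the CFL1 and PFN1 changes lie below the lower one. Of the 60 genes at 12 or above, 16 were called lower and 19 higher, with a median of 0.01 and quartiles of −0.08 and 0.12. The ACTB change of −0.52 lies below that lower quartile, as does the TMSB4X change of −0.22. From 9 to 11 there were 826 genes, of which 339 were called lower and 331 higher. Their median was 0.03, with quartiles of −0.51 and 0.39. The changes of CAPZA1 (−0.33), MYL6 (−0.11) and ARPC5 (0.29) lie within those quartiles, and that of TMSB10 (−0.87) lies below the lower one.

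Genes often used to scale expression data were also read, as a list. Of 14 such genes, 10 had a probe set of their own and were tested. In the knockdown 7 fell and 2 rose (limma), with a median change of −0.34. Of all genes tested 47.3% were called, 22% lower and 25.3% higher. Of those with a mean level from 9 to 11, 41.0% were called lower and 40.1% higher. The list was not matched to other genes for level. GAPDH, a glycolytic enzyme, fell by 0.71 (12.13 ± 0.03 in the knockdown and 12.84 ± 0.01 in the controls, SD, n = 3 each; limma adjusted p = 3.35e-16). HPRT1, a purine salvage enzyme, fell by 1.25 (adjusted p = 1.25e-12), and the transferrin receptor TFRC fell by 0.75 (adjusted p = 1.43e-08). When their probe sets were averaged, HPRT1 fell by 0.72 and TFRC by 0.46. B2M, the light chain of MHC class I, rose by 0.45 (12.78 ± 0.01 in the knockdown and 12.33 ± 0.02 in the controls; adjusted p = 4.96e-12). On averaged probe sets 4 of the 10 fell and 1 rose. Where probe sets free of the _x_ and _s_ marks came first, 5 fell and 0 rose. That setting tested fewer genes, 11894 over the whole array against 12939, and a gene that was not tested could not be called. With any array but control replicate 1 left out, 1 rose.

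The other genes of the actin cytoskeleton moved in both directions. In 9 lists with 164 genes, 147 had a probe set of their own and 127 were tested; 37 fell, 37 rose and 53 were not called, with a median change of −0.03. That is 58.3% called, against 47.3% of all genes. The share called depends on level. Of genes tested with a mean below 7, 14.6% were called lower and 21.4% higher. From 7 to 9 the shares were 31.4% and 29.5%, and from 9 to 11 they were 41.0% and 40.1%. The lists were not matched to all genes for level, so nothing is read from the 58.3%. The balance of directions depended on scaling: centring the arrays on their medians gave 46 lower and 28 higher. Over all genes tested the same centring gave 3316 lower and 2765 higher, against 2841 and 3273 on the values as deposited. The lists were drawn up by function and not by how their genes moved, but with earlier results of these arrays known.

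Close relatives of the 10 genes did not move as one. Of the 2 other actin isoforms tested, ACTC1, cardiac actin, fell by 0.38 (limma adjusted p = 0.00375) and ACTG2 did not pass (−0.08). Of 7 other Arp2/3 subunits tested, 2 fell, 2 rose and 3 did not pass, with a median of 0.08. ACTR3, the actin-like subunit ARP3, fell by 0.62 on its brightest probe set, at 10.20 ± 0.04 in the knockdown and 10.82 ± 0.03 in the controls (SD, n = 3 each; adjusted p = 4.01e-10), while another of its 5 probe sets gave 0.48 and their mean −0.24. ARPC5L, the paralog of ARPC5, rose by 0.33 (adjusted p = 0.0011), and by 0.66 on its brightest probe set without an _x_ or _s_ mark. ARPC4 changed by −0.35 (adjusted p = 0.00983), or −0.26 and not called without control replicate 1. ARPC1A rose by 0.27 (adjusted p = 0.0331), a call that was lost in 7 of 16 other settings, among them leaving out knockdown replicate 1 or 2 or control replicate 2 or 3.

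Of 15 activators of Arp2/3 tested, 8 rose, 2 fell and 5 did not pass, with a median of 0.29. Without knockdown replicate 2, 5 rose, and with any 1 array left out 1 to 4 fell (1 without knockdown replicate 3 or control replicate 1, 4 without control replicate 2). HCLS1, the cortactin relative of blood cells, rose by 0.81 (10.94 ± 0.07 in the knockdown and 10.13 ± 0.09 in the controls, SD, n = 3 each; limma adjusted p = 6.87e-12). JMY, which both nucleates actin and works in the p53 response, rose by 1.18 (adjusted p = 2.3e-10), and CYFIP2, a subunit of the WAVE complex, rose by 0.66 (adjusted p = 7.7e-07). WASF2, the WAVE2 protein, fell by 0.42 (adjusted p = 3.49e-04).

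Among 21 tested genes of monomer binding, capping and turnover, 7 fell, 7 rose and 7 did not pass, with a median of −0.05; 4 fell without knockdown replicate 3 or control replicate 3, and 4 rose under quantile or cyclic loess normalization. CORO1A, the coronin of blood cells that works with cofilin in filament turnover, fell by 1.10 (8.88 ± 0.06 in the knockdown and 9.98 ± 0.13 in the controls, SD, n = 3 each; limma adjusted p = 1.37e-12). PFN2, the second profilin, rose by 0.83 (7.71 ± 0.12 in the knockdown and 6.88 ± 0.10 in the controls; adjusted p = 1.11e-07), while PFN1 was lower. TMOD3, a tropomodulin that caps pointed ends, fell by 0.84 (adjusted p = 7.17e-07), or by 0.43 when its probe sets were averaged. CAPZB, the partner of CAPZA1 in capping protein, fell by 0.44 (adjusted p = 8.99e-05).

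Of 12 formins and Ena/VASP proteins tested, 3 fell, 3 rose and 6 did not pass; under centring or without knockdown replicate 2 or control replicate 2, 1 rose. FHOD1 fell by 0.85 (limma adjusted p = 3.43e-07) and DIAPH1, the formin mDia1, by 0.65 (adjusted p = 1.86e-06), or by 0.29 on averaged probe sets. DIAPH3 changed by −0.43 (adjusted p = 0.00137) and FMNL2 by 0.36 (adjusted p = 0.0089), and neither was called on averaged probe sets (−0.20 and 0.14).

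Of 17 crosslinkers, bundlers and membrane linkers tested, 7 fell, 3 rose and 7 did not pass, with a median of −0.11. MARCKS, a membrane protein that binds actin and calmodulin, rose by 1.31 (limma adjusted p = 1.43e-12), and by 0.35 on its brightest probe set without an _x_ or _s_ mark. ANLN, anillin of the contractile ring, fell by 1.24 (adjusted p = 2.73e-09), or by 0.72 with an offset of 64 added to the signal in place of the inferred 16. ACTN4, alpha-actinin 4, fell by 0.73 (adjusted p = 8.7e-07) and MSN, moesin, which ties actin to the plasma membrane, by 0.55 (adjusted p = 1.05e-06), or by 0.35 on averaged probe sets.

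Of 18 non-muscle myosins, light chains and their regulators tested, 7 rose, 3 fell and 8 did not pass, with a median of 0.02; centring gave 6 lower, and leaving out control replicate 2 gave 5. MYL12A and MYL12B, the regulatory light chains that pair with MYL6 in myosin II, rose by 0.76 (limma adjusted p = 7.3e-08) and 0.59 (adjusted p = 2.91e-06). MYL12A rose by 0.38 on averaged probe sets. MYO1A, a class I myosin, rose by 0.83 (adjusted p = 4.68e-07). MYO5A, a cargo-carrying myosin, rose by 0.58 on its brightest probe set (adjusted p = 2.23e-05) and was not called on averaged ones (0.12).

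Of 15 tested genes of the SRF and MRTF group, 4 fell, 1 rose and 10 did not pass, with a median of −0.06; 0 rose under each of the 3 other scalings, without knockdown replicate 1 or 2 and without control replicate 1 or 2, and 2 rose where probe sets free of the _x_ and _s_ marks came first. ELK3, a partner of SRF, fell by 1.18 (limma adjusted p = 4.54e-10), or by 0.49 on averaged probe sets. FHL2, a LIM protein, fell by 1.12 (adjusted p = 5.53e-10) and ACTA2, smooth muscle actin, by 0.51 (adjusted p = 2.37e-04), or by 0.30 on averaged ones. SRF, of which a promoter with CArG boxes is shown above, changed by −0.32 (5.85 ± 0.22 in the knockdown and 6.17 ± 0.10 in the controls, limma adjusted p = 0.0287). That call was lost without knockdown replicate 2 (−0.21), without control replicate 2 (−0.27), on averaged probe sets (−0.21) and when dim genes were kept in the test. MRTFA and MRTFB did not pass (0.04 and −0.03).

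**Figure D4:**
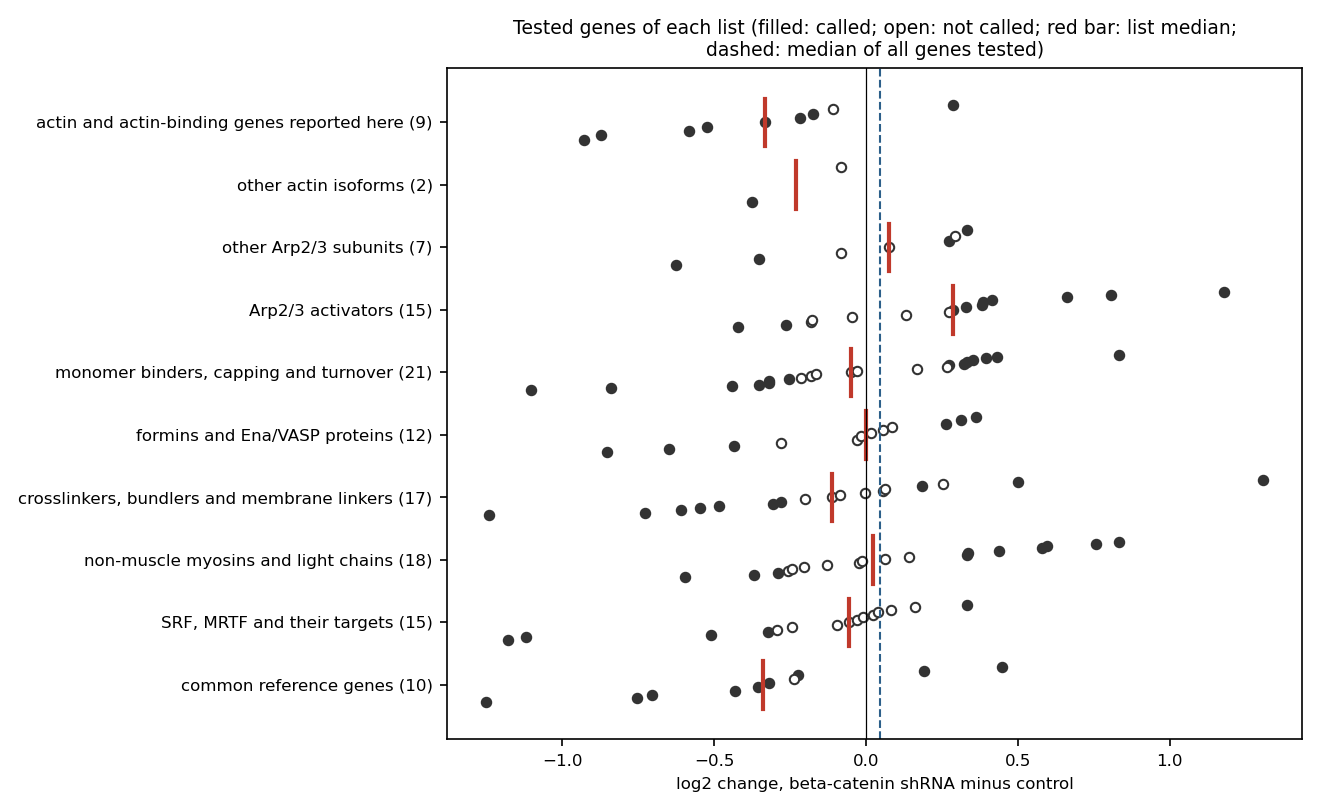
Log2 change, beta-catenin shRNA minus control (x axis), of each tested gene of the 10 genes reported here, 8 functional lists and the common reference genes, with the number tested in brackets. Filled points were called by the fit over all genes, red bars are list medians (−0.33 for the genes reported here, −0.34 for the reference genes) and the dashed line is the median of all genes, 0.05.

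The genes whose array profile lay nearest to the mean profile of the 9 genes were CDV3, NDUFB4, ZCRB1, UBXN11 and STMP1. Each profile was the value minus the gene's control mean on the 6 arrays, and the root mean square distance of these 5 was 0.017 to 0.027 on the log2 scale. Of 12769 genes outside all lists, 595 lay within 0.1 of that profile. CDV3 changed by −0.38, and NDUFB4 by −0.41 on its brightest probe set but by 0.46 on its brightest one without an _x_ or _s_ mark.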

How the data were processed

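Total RNA of 6 MM1.S cultures was hybridised to 1-colour Affymetrix arrays, with groups and replicate numbers taken from the titles. A part of the labels that speaks of embryos contradicts the cell line and was not used. The table deposited by the authors gives each probe set a log2 value on each array. Its floor at 4, the log2 of 16, and its likely form, log2(signal + 16), were read from the values. MAS5 and PLIER are named, per the submitters' processing notes, without versions or roles; how the arrays were scaled is not known here. The values were used as deposited.

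Of 54675 probe sets, 62 controls stayed out of the tests; 41091 of the others had 1 symbol in the platform annotation, 1801 several and 11721 none here. A gene was read by its brightest probe set of 1 symbol and tested if the mean over the 6 arrays reached 5.49, which left 12939 of 19775 genes. Groups were compared with limma 3.58.1 in R 4.3.3 (lmFit, eBayes with intensity trend, two-sided, Benjamini-Hochberg adjustment over all genes tested, threshold 0.05), checked on simulated data; a second fit ran over all 54613 non-control probe sets and gave the SE printed for the 10 genes. Single values had an exact permutation test (SciPy 1.17.1). P-values measure only the spread between cultures of sorted cells, which may leave out that between infections; having 3 arrays a group limits precision.

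The 10 genes, the lists and the tests were chosen with earlier results of these data known. Genes named beside the 10 were up to 4 called members of each functional or reference list by adjusted p, CTNNB1, and the 5 nearest profiles. ACTG2, MRTFA, MRTFB and single cell type markers were named after their values were seen. Lists covered actin isoforms, Arp2/3 subunits, Arp2/3 activators, monomer binders and turnover, formins, crosslinkers, myosins, SRF and MRTF genes, reference genes and cell type markers; 1 further list counts in the totals over 9 lists and is not reported here. Of the markers of other cells, 2 of 4 B cell, 1 of 5 T and NK cell, 2 of 4 myeloid, 3 of 6 kidney epithelial and 2 of 4 erythroid genes with a probe set reached the filter. Alternatives changed the replicate block, scaling, filter, probe set rule, variance model, offset and arrays used.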

Additional observations from a re-analysis of the deposited data

How the results depend on the processing

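The median change of the 9 genes with a probe set of their own was −0.33 as reported and kept its sign in every setting tried; it was −0.22 when probe sets were averaged, −0.37 to −0.28 with 1 array left out, and −0.39 with a shared ACTG1 and ACTB probe set added to the 9 values, an alternative chosen after seeing the data. The genes called numbered 6114, and 5305 to 6001 with 1 array left out; the probe sets called numbered 12693, and 9526 to 11863. Other actin cytoskeleton genes called lower numbered 30 to 41 and higher 25 to 34 with 1 array left out. Between the groups, the ACTB 3′ reading less the 5′ one differed by −0.16 to 0.019 with 1 array left out, turning sign without control replicate 1 (0.019). MYL6 turned to 0.20 on averaged probe sets and to 0.51 where those free of the _x_ and _s_ marks came first, and NDUFB4 to 0.023 and 0.46. These switches read other probe sets; which is right was not tested. With the replicate number as a block, 5494 genes and 11148 probe sets were called together with 8 of the 9 genes, as many as without it. No pairing by number was seen: deviations of same-numbered arrays correlated at −0.09, −0.26 and −0.30, and those of other pairs at −0.08 to 0.28. With 3 arrays a group these values cannot settle whether same-numbered cultures were handled together. No scaling moved the median change of all genes by over 0.1. Without an intensity trend 6 of the 9 genes were called, under quantile normalization 7, and on averaged probe sets 5 lower and 2 higher. Dim probe sets near the floor limit what CFL1 and CAPZA1 can show beside their bright ones.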
